A study of Drosophila melanogaster with 2 samples.

Results

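The actin and tubulin genes described here were 10 protein-coding genes of Drosophila melanogaster, chosen by name, out of 13968 protein-coding genes on the chromosome arms. They comprised 2 cytoplasmic actin genes (Act5C and Act42A), 4 muscle actin genes (Act57B, Act87E, Act79B and Act88F), 3 ubiquitous tubulin genes (gammaTub23C, alphaTub84B and betaTub56D) and 1 tissue-limited tubulin gene (betaTub60D). For each gene, every Taf1 peak summit within 500 or 1000 bp of an annotated transcription start site (TSS) or inside the gene body was recorded. All 10 genes were found in the annotation by symbol.

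The series held chromatin immunoprecipitation sequencing (ChIP-seq) of Taf1 in whole embryos collected over 0 to 24 h of age. Both samples came from 1 fly strain, Taf1-GFP, which carries an insertion that makes a Taf1-eGFP fusion protein, and the fusion protein was pulled down with an antibody to GFP. There was 1 group with 2 biological replicates, both of the same genotype and age range, so no conditions could be compared. Whole embryos mix all tissues and ages of that range. The data were peak lists without read counts, so the depth behind each peak is unknown. The pooled thresholded list held 2665 peaks, and the thresholded lists of replicates 1 and 2 held 1283 and 1994. The relaxed ranked lists of replicates 1 and 2 held 33551 and 95427. There were 2 pooled ranked lists, of 60624 and 49647 peaks, and the larger is called the pooled ranked list here. Peak signals are the authors' own values, whose scale is unstated, and each list was read on its own scale. The median signal was 90.6 in the pooled thresholded list, 65.9 and 58.5 in the thresholded lists of replicates 1 and 2, and 17.1 and 10.2 in their ranked lists.

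TFIID, the general factor that binds core promoters and helps to load RNA polymerase II at start sites, has Taf1 as its largest subunit. Actins polymerise into the filaments of the cell cortex and of the muscle sarcomere. In flies, Act5C and Act42A make the actin of most non-muscle cells, Act57B and Act87E are used mainly in embryonic and larval muscles, Act79B in leg and other tubular adult muscles, and Act88F in the indirect flight muscles. Alpha- and beta-tubulin form the dimers that build microtubules, and gamma-tubulin nucleates them at centrosomes. The genes alphaTub84B and betaTub56D supply most cells, gammaTub23C is the gamma-tubulin of somatic cells, and betaTub60D is used in developing muscle and some sensory organs.

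High-confidence Taf1 summits are given first, beside the shares of all protein-coding genes. In the pooled thresholded list 1 of 10 genes, gammaTub23C, had a summit within 500 bp of a TSS, where the share among all protein-coding genes was 13.2%. Within 1000 bp the count was 3 of 10 (Act5C, gammaTub23C and betaTub56D), beside 15.4% of protein-coding genes. No gene of the 10 had a thresholded summit inside its body, beside 8.08% of protein-coding genes, at a median gene length of 2317 bp for the 10 and 2164 bp for all coding genes. With only 10 genes, 1 gene moves the share by 10 percentage points. The counts at 500 bp and in the body are thus close to the shares of all genes. The count within 1000 bp lay above its share, and the difference was not tested.

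The replicate thresholded lists held fewer of them. In replicate 1 no gene had a summit within 500 bp (7.23% of coding genes did), Act5C had 1 within 1000 bp (8.47%), and no gene had 1 in the body (4.5%). In replicate 2, gammaTub23C had a summit within 500 bp (10.6%), gammaTub23C and Act5C within 1000 bp (12.3%), and no gene in the body (6.55%). Act5C was the only 1 of the 10 with a summit in all 3 of these lists.

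In the relaxed ranked lists many more coding genes had a summit, and so did more of the 10. In the ranked list of replicate 1, 8 genes had a summit within 500 bp (49.7% of coding genes), 9 within 1000 bp (63.7%) and 9 in the body (55.2%). In the ranked list of replicate 2, the counts were 5 within 500 bp (64.2%), 7 within 1000 bp (80.0%) and 8 in the body (74.4%). At the start sites the counts lay above the shares of all genes in replicate 1 and below them in replicate 2, so the replicates gave no common direction there. In the body they lay above the shares in both, though in replicate 2 by less than 1 gene. Act42A and betaTub56D lie where the ranked list of replicate 2 was empty, as described further on.

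**Figure D1:**
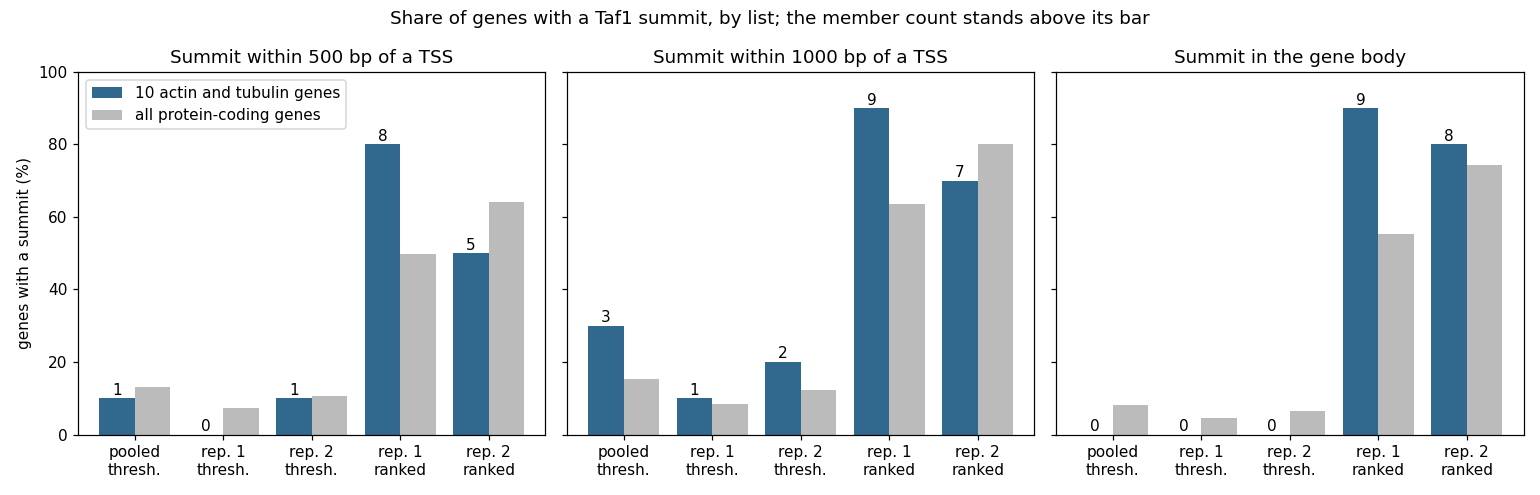
Bars give the share of genes (%) with a Taf1 summit within 500 bp of a TSS, within 1000 bp of a TSS or in the gene body, for the 10 actin and tubulin genes (blue, count above the bar) and all 13968 protein-coding genes (grey), in the pooled thresholded list and in the thresholded and ranked lists of each replicate. The blue bars exceed the grey ones in the ranked list of replicate 1 (8, 9 and 9 genes) and fall below them at start sites in that of replicate 2 (5 and 7 genes).

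Act5C, a cytoplasmic actin gene expressed in nearly all cells (FBgn0000042, X:5900861-5905399 on dm6, plus strand), had the strongest thresholded summit of the 10 genes. It lay at position 5900176, 685 bp upstream of the first of 2 annotated start sites, in a peak at X:5900018-5900333. Its signal was 130.0 in the pooled thresholded list, rank 738 of 2665. The signal was 60.7 in replicate 1 (rank 732 of 1283) and 70.5 in replicate 2 (rank 746 of 1994), each on its own scale. The summits of the replicates lay 24 bp apart. The log2 ratio of replicate 2 to replicate 1 was 0.22, against a median of 0.16 (SD 0.69) over the 2436 pooled thresholded peaks with a summit in both replicates within 200 bp. The summit was also in the conservative list. It lay nearer to another start than to that of Act5C: the noncoding RNA gene lncRNA:CR45668 starts on the opposite strand 872 bp from the first Act5C start, and the summit was 187 bp from it. The stretch around this summit is shown because it is where the Act5C locus carried most Taf1 signal. It covers chrX:5900076-5900275 of dm6, plus strand, and the capitals mark the 21 bases centred on the pooled summit.
Act5C upstream summit: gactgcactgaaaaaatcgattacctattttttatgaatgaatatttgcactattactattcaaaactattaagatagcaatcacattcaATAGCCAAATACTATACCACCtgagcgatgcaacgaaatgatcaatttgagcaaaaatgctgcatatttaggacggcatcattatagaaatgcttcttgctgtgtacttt

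Closer to the start sites of Act5C, summits were found only in the relaxed lists, and the replicates differed there. Act5C is transcribed from 2 start sites, at 5900861 and 5901982. Just upstream of the second start, replicate 1 had a summit of signal 45.8 at 151 bp, with an irreproducible discovery rate (IDR, the estimated rate at which peaks of that strength fail to repeat between sets of reads) of 0.0417. Replicate 2 had a summit of 10.5 at 164 bp upstream of the same start, with an IDR of 0.808. The pooled ranked list had 1 of 60.5 at 138 bp upstream. All 3 lie in the first intron. At the first start, replicate 1 had a summit of 17.6 at 134 bp downstream, in the 5' UTR, and replicate 2 had 1 of 10.6 at 453 bp upstream. The strongest Act5C summit within 500 bp of a start was thus stronger than 85.1% of the best summits of coding genes in replicate 1 and stronger than 26.4% in replicate 2. Further summits lay in coding exons and the 3' UTR, the strongest at 2563 bp from the second start in replicate 1 (signal 33.1). The stretches before the 2 starts are shown because they hold short promoter elements described further on. Only the second stretch also holds summits, those just upstream of the second start. They cover chrX:5900741-5900860 and chrX:5901782-5901981, plus strand, and each ends at the base before the start. Capitals mark the TATAAA letters, matches of GAGAG on either strand, and the CArG box, a site that serum response factor is known to bind.
Act5C before the first start: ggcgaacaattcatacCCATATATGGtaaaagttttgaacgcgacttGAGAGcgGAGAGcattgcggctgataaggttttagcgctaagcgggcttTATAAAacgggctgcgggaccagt
Act5C before the second start: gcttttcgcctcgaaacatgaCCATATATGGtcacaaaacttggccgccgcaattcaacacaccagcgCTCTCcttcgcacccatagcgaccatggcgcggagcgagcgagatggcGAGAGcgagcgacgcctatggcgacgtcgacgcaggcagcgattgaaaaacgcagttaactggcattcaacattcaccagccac

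Both stretches of Act5C held a CArG box, 104 bp before the first start and 179 bp before the second. The summits at the second start lay between this box and the start, 151 and 164 bp before it in replicates 1 and 2. A match of letters does not show that a factor was bound.

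**Figure D2:**
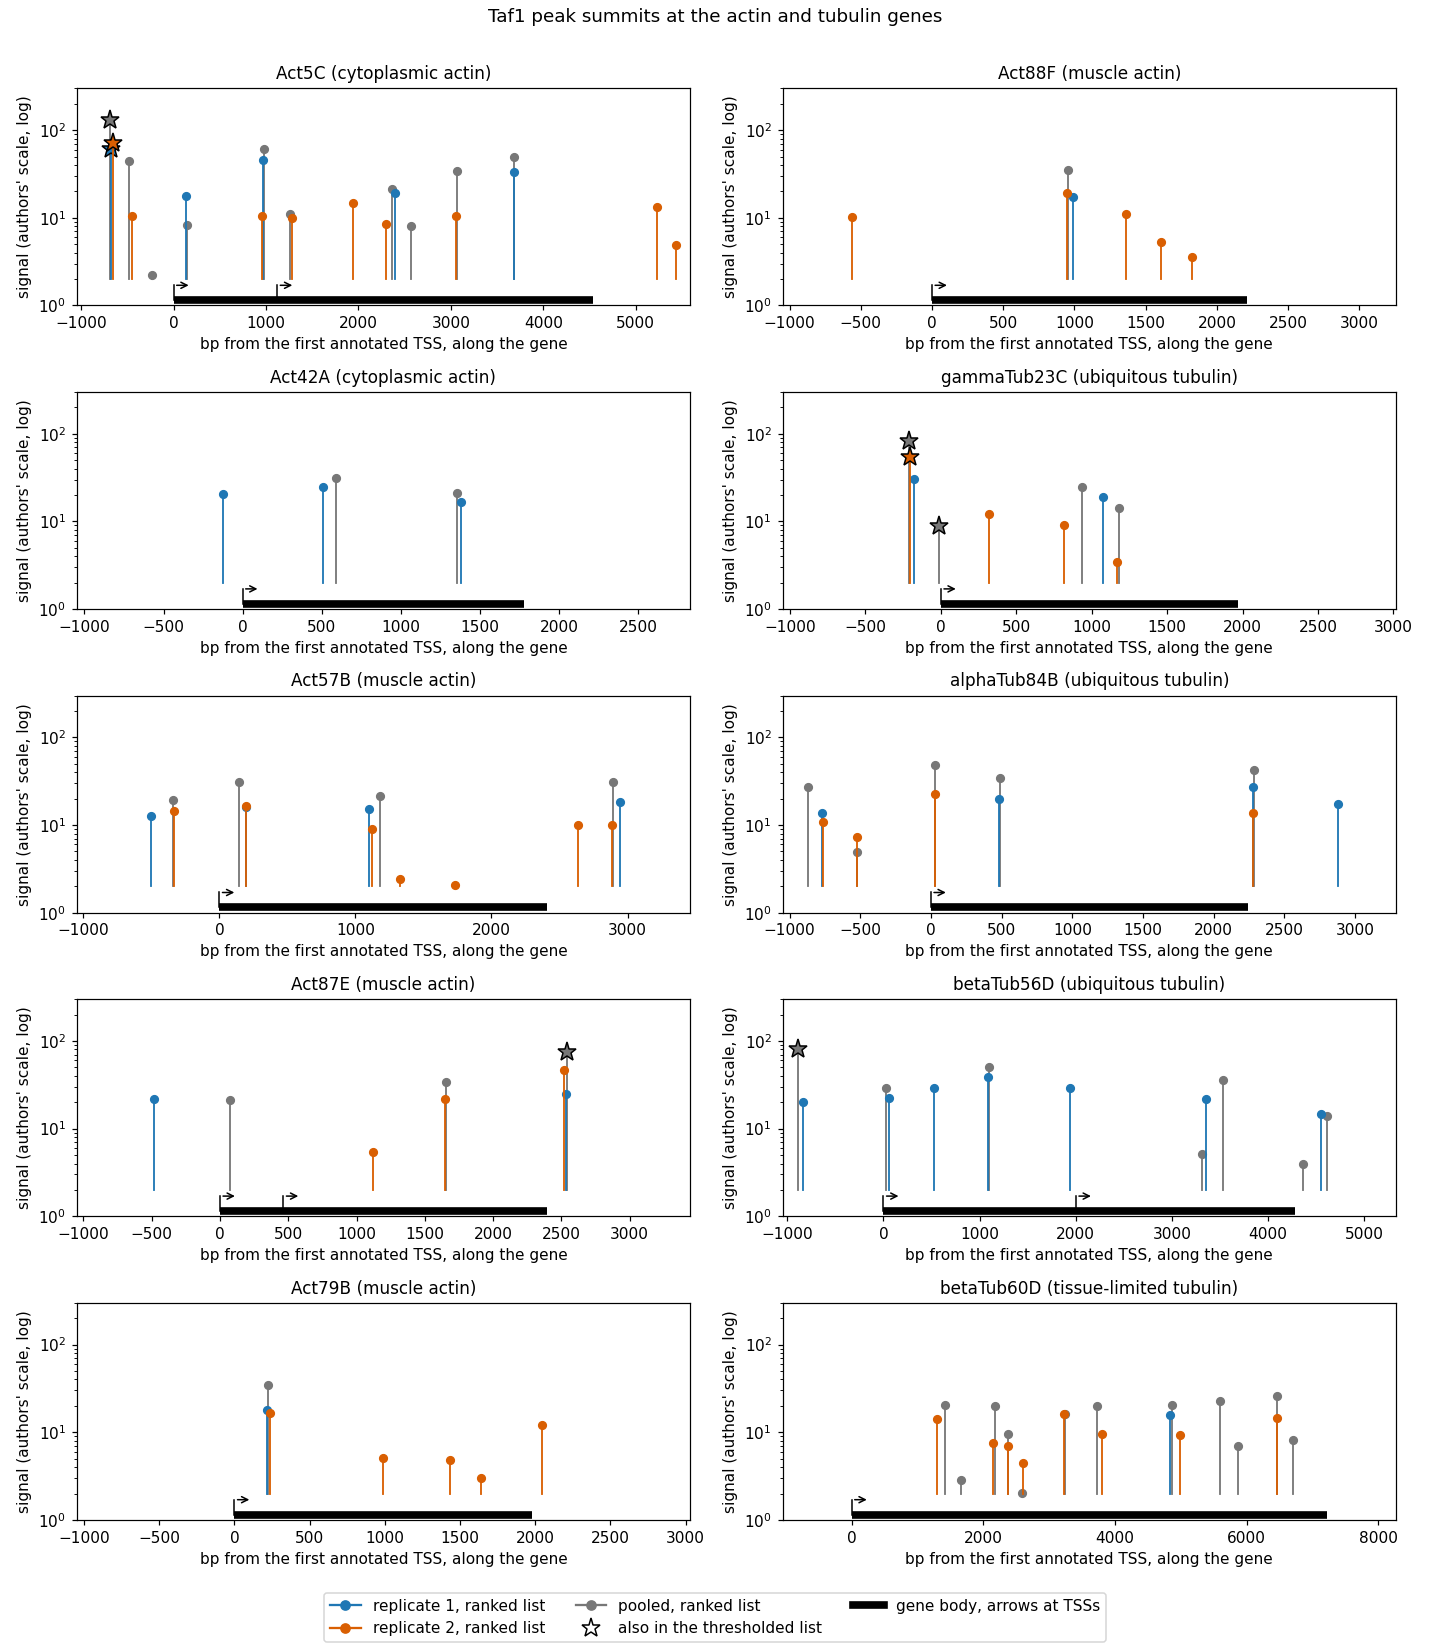
Each panel is 1 gene, with bp from its first annotated TSS along the gene on the horizontal axis and peak signal on the authors' scale (log axis) on the vertical axis; stems are summits of the ranked lists of replicate 1 (blue), replicate 2 (orange) and the pooled reads (grey), stars mark summits also in the thresholded lists, and the black bar is the gene body. The stars stand upstream of Act5C (685 bp), gammaTub23C (213 and 14 bp) and betaTub56D (887 bp), and past the end of Act87E (147 bp), with none at the other 6 genes.

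Act42A, the other cytoplasmic actin gene (FBgn0000043, 2R:6013910-6015689 on dm6, minus strand), had no summit in any thresholded list. In the ranked list of replicate 1 it had 3 summits: 20.6 at 121 bp upstream of its start, 24.4 at 506 bp downstream and 16.7 at 1378 bp downstream, the last 2 in coding sequence. The pooled ranked list had 31.6 at 591 bp and 21.4 at 1358 bp downstream. The smaller pooled ranked list had none. Replicate 2 had none. That list was empty over the whole neighbourhood, as described further on.

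The 4 muscle actin genes had no thresholded summit within 1000 bp of a start or in the body in any list. They had summits in the ranked lists. The strongest within 500 bp of a start reached 22.0 in replicate 1 and 16.5 in replicate 2, where the medians over coding genes with such a summit were 22.3 and 15.2. Embryos of this range hold muscle cells among many other cells, and fewer cells of a type and less Taf1 at a promoter in each cell cannot be told apart in whole embryos.

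Act57B (FBgn0000044, 2R:20944021-20946431, plus strand), used in embryonic and larval muscle, had a summit at nearly the same place in both replicates. Replicate 1 had a summit of signal 15.9 at 195 bp downstream of the start and replicate 2 had 1 of 16.3 at 197 bp downstream, both in the first intron. The pooled ranked list had 1 of 30.7 at 146 bp. The IDRs of the summits at 195 and 197 bp were 0.786 in replicate 1 and 0.191 in replicate 2. All 3 summits of Act57B in replicate 1 had a summit of replicate 2 within 200 bp, as did 50.8% of all summits of replicate 1 on the main arms. Upstream, replicate 1 had 12.8 at 501 bp and replicate 2 had 14.3 at 335 bp. The best summit within 500 bp was stronger than that of 21.4% of coding genes with such a summit in replicate 1 and of 55.5% in replicate 2.

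Act79B (FBgn0000045, 3L:21985210-21987190, plus strand), an actin of tubular adult muscles, had a summit in coding sequence 217 bp downstream of the start in replicate 1 (signal 17.9) and 239 bp downstream in replicate 2 (16.5). The pooled ranked list had 34.7 at 225 bp. Replicate 2 had further summits of 5.1, 4.8 and 3.0 in the gene, and replicate 1 had none. Act88F (FBgn0000047, 3R:15439969-15442177, plus strand), the flight muscle actin, had no summit within 500 bp of its start. Its strongest lay in coding sequence, 987 bp downstream in replicate 1 (17.4), 946 bp downstream in replicate 2 (19.3) and 952 bp downstream in the pooled ranked list (35.5). Replicate 2 also had 10.3 at 564 bp upstream. The replicates placed the strongest summit of both genes within 200 bp of each other, in coding sequence and not over the start. The IDRs of these summits in replicates 1 and 2 were 0.911 and 0.835 at Act79B and 0.911 and 0.737 at Act88F. Such a match is common: 50.8% of all summits of replicate 1 on the main arms had 1.

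Act87E (FBgn0000046, 3R:13425983-13428375, plus strand), a muscle actin gene with 2 annotated starts, had its summits near the start at places that differed between replicates. Replicate 1 had 22.0 at 485 bp upstream of the first start. Replicate 2 had 5.5 at 658 bp and 21.9 at 1182 bp downstream of the second start. Act87E was the only muscle actin gene with a thresholded summit within 1000 bp past its end, a place the choice of summits did not cover. It lay at 13428522, 147 bp past the end of the gene, with a signal of 74.4 in the pooled thresholded list (rank 1748 of 2665). The signal there was 25.1 in replicate 1 (IDR 0.515) and 46.1 in replicate 2 (IDR 0.0143), at summits 19 bp apart, and neither replicate's thresholded list nor the conservative list held it. The nearest gene on that side, yrt, a FERM-domain gene of epithelial polarity, ends 345 bp from the summit and runs towards Act87E, so the summit lay between the ends of both genes. The nearest start of another gene was 2344 bp away. Act57B had weaker summits past its end, of 18.1 at 533 bp in replicate 1 and of 9.9 at 224 bp in replicate 2, which had another at 473 bp.

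Set side by side, 1 of the 2 cytoplasmic actin genes and 0 of the 4 muscle actin genes had a thresholded summit within 1000 bp. None of the 6 had 1 within 500 bp. In the pooled list 15.4% of coding genes had 1 within 1000 bp and 13.2% within 500 bp, so none among 4 genes is close to these shares. In the ranked list of replicate 1 the strongest signal within 1000 bp was 60.7 at Act5C and 24.4 at Act42A. It ranged from 15.9 to 22.0 over the muscle actin genes. All 6 genes had such a summit, as did 63.7% of coding genes, whose median was 21.9. The classes did not overlap there, but Act42A and the highest muscle actin gene both lay close to that median. In replicate 2 it was 70.5 at Act5C, none was listed at Act42A, and the muscle actin genes ranged from 5.5 to 19.3. Within 500 bp the classes overlapped in both replicates: in replicate 1, Act42A (20.6) lay below Act87E (22.0), and in replicate 2, Act5C (10.6) lay below Act57B (16.3) and Act79B (16.5). The contrast within 1000 bp in replicate 2 came from Act5C alone. Genes of a class are not replicates of a condition, and the difference was not tested.

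The gene gammaTub23C (FBgn0260639, 2L:2972891-2974858, plus strand), which makes the gamma-tubulin of somatic centrosomes, was the only 1 of the 10 with a thresholded summit within 500 bp of its start. The pooled thresholded list held 2 overlapping peaks there. The stronger summit lay 213 bp upstream with a signal of 82.2 (rank 1537 of 2665, peak 2L:2972520-2972835), and the weaker lay 14 bp upstream with a signal of 9.0 (rank 2610, peak 2L:2972719-2973034). Both were in the conservative list. In each replicate the nearest summit within 200 bp was the same 1 for both, so the weaker had no separate summit there. Their IDRs in the pooled ranked list were nearly the same, 0.000166 for the stronger and 0.000165 for the weaker. In replicate 1 a single summit lay 179 bp upstream with a signal of 30.3 (rank 3127 of 33551, IDR 0.416), and it was not in that replicate's thresholded list. In replicate 2 a summit lay 207 bp upstream with a signal of 55.0 (rank 1146 of 95427, IDR 0.000373), and it was thresholded. The log2 ratio of replicate 2 to replicate 1 was 0.86, against the median of 0.16 (SD 0.69) given above for all such peaks. The thresholded call within a replicate rested on replicate 2.

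The promoter of gammaTub23C is shared space. The gene Rrp1, which encodes a DNA repair endonuclease, starts on the opposite strand 383 bp away, and the stronger summit lay 170 bp from the Rrp1 start and 213 bp from that of gammaTub23C. The summit thus cannot be given to either gene by position. The 250 bases before the start are shown because they hold both summits. They cover chr2L:2972641-2972890 of dm6, plus strand, and the capitals mark the 21 bases centred on each pooled summit.
gammaTub23C before the start: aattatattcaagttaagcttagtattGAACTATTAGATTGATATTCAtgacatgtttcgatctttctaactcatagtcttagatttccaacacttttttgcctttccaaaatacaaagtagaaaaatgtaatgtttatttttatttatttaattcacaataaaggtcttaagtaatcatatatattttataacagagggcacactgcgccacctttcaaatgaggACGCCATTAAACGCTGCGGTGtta

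The gene alphaTub84B (FBgn0003884, 3R:7086599-7088839, plus strand), the main alpha-tubulin gene of most cells, had no thresholded summit. Its strongest summits within 1000 bp of the start lay on the downstream side. Replicate 2 had 22.8 at 26 bp downstream of the start, stronger than 72.1% of the best summits of coding genes in that list. Replicate 1 had none over the start, and its nearest was 19.8 at 478 bp downstream in the first intron, stronger than 39.9%. The pooled ranked list had both, 48.5 at 32 bp and 34.6 at 485 bp. Upstream, both replicates had a weak summit at nearly the same place, 13.5 at 768 bp in replicate 1 and 10.8 at 765 bp in replicate 2. Their IDRs were 0.911 and 0.843. Just past the end of the gene, both replicates had a summit at the same base, 41 bp beyond it. Its signal was 27.2 in replicate 1 (IDR 0.417) and 13.8 in replicate 2 (IDR 0.868). In replicate 1 the summit past the end was stronger than the summit in the gene. The gene Tailor, for an RNA uridylyltransferase, starts on the opposite strand 516 bp from the alphaTub84B start.

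The gene betaTub56D (FBgn0284243, 2R:19447319-19451600, minus strand), the main beta-tubulin gene of most cells, had a thresholded summit only in the pooled list. It lay 887 bp upstream of the first start with a signal of 81.1 (rank 1571 of 2665) and was not in the conservative list. It was 17 bp from the start of CG7744, which runs in the opposite direction. Replicate 1 had a summit of 19.9 at 832 bp upstream (rank 11059 of 33551, IDR 0.0308), and replicate 2 had none. Within the gene, replicate 1 had 22.6 at 62 bp downstream of the first start, in the 5' UTR, and 28.8 at 63 bp upstream of the second start, at 19449599. It also had 39.1 in the intron between the starts, 914 bp before the second, the strongest of its summits at this gene. The pooled ranked list had 29.2 at 22 bp downstream of the first start and 50.9 at 904 bp before the second. The smaller pooled ranked list had none at this gene. No summit of replicate 2 lay in or within 1000 bp of the gene.

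The gene betaTub60D (FBgn0288686, 2R:24305881-24313099, plus strand), a beta-tubulin of developing muscle, had no summit within 1000 bp of its start in any of the lists. Its summits lay in the body, where the gene, at 7219 bp, is the longest of the 10. Replicate 1 had 1, of 15.9 at 4840 bp from the start. Replicate 2 had 8, from 4.4 to 16.3, between 1302 and 6458 bp from the start. The pooled ranked list had 12, of which the strongest was 26.2 in the 3' UTR, and the smaller pooled ranked list had 2. Of the 8 summits in replicate 2, 1 lay within 200 bp of a summit of replicate 1. The nearest summits upstream of its start lay 10632 bp away in replicate 1 and 1264 bp away in replicate 2.

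Between the tubulin classes, 1 of the 3 ubiquitous genes had a thresholded summit within 500 bp and 2 within 1000 bp in the pooled list. The tissue-limited gene had neither. The shares of coding genes were 13.2% and 15.4%. In the ranked list of replicate 1 all 3 ubiquitous genes had a summit within 500 bp, from 19.8 to 30.3, and in that of replicate 2, 2 of 3 did, with signals of 22.8 and 55.0. The tissue-limited gene had none within 500 bp in either replicate. Of all coding genes, 49.7% had such a summit in replicate 1 and 64.2% in replicate 2, so a gene without 1 is common. In replicate 2 betaTub56D, like betaTub60D, had no summit listed within 1000 bp. The tissue-limited class is a single gene, so the spread within it is unknown.

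**Figure D3:**
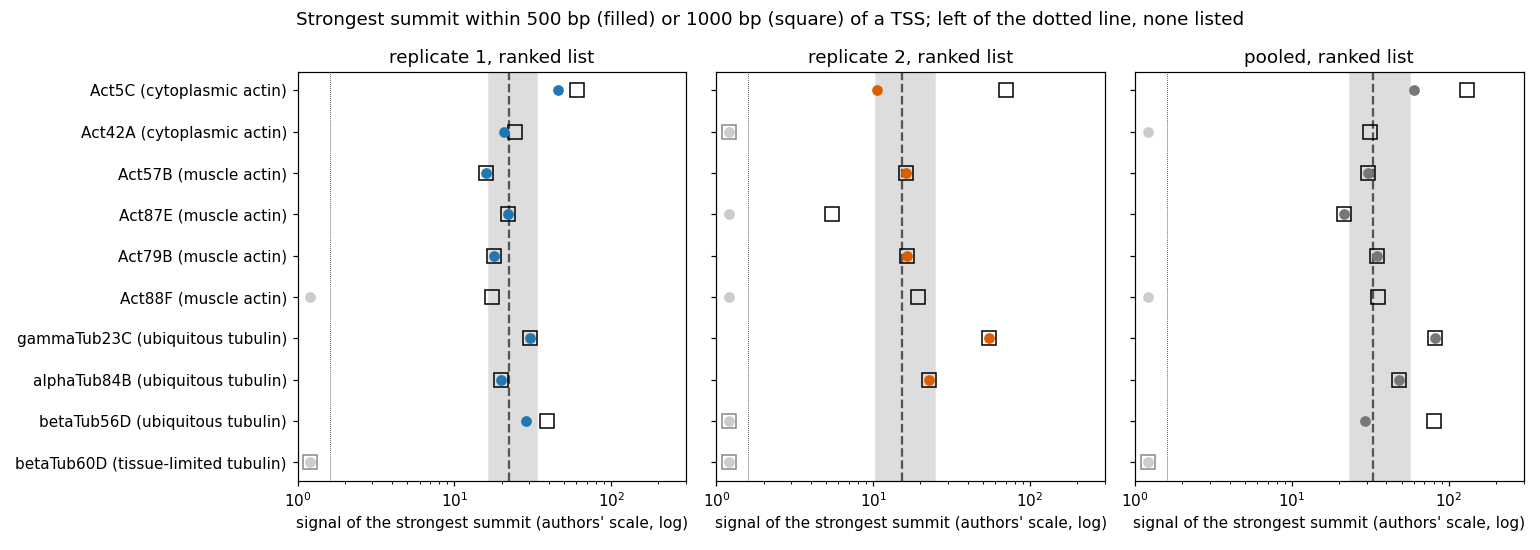
For each gene, the signal of its strongest summit within 500 bp (filled circle) or 1000 bp (open square) of a TSS is plotted on the authors' scale (log axis) in the ranked lists of replicate 1, replicate 2 and the pooled reads; symbols left of the dotted line mean that none was listed. The dashed line and grey band are the median and the interquartile range of the strongest summit within 500 bp over protein-coding genes with such a summit: 22.3 (16.7 to 33.4) in replicate 1, 15.2 (10.4 to 24.8) in replicate 2 and 33.0 (23.3 to 56.6) in the pooled list. Among the filled circles only gammaTub23C stands above the band in replicate 2 (55.0) and only Act5C in replicate 1 (45.8).

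All 3 genes with a thresholded summit within 1000 bp had a divergent neighbour, and the summit lay between the pair of starts in each. The starts were 872 bp apart at Act5C and lncRNA:CR45668, 383 bp at gammaTub23C and Rrp1, and 904 bp at betaTub56D and CG7744. In each case the strongest summit was nearer to the neighbour's start (187, 170 and 17 bp) than to that of the actin or tubulin gene (685, 213 and 887 bp). Another of the 10, alphaTub84B, has such a neighbour at 516 bp and no thresholded summit. At Act87E, lncRNA:CR45591 starts on the opposite strand, 195 bp from the nearest Act87E start. No thresholded summit lay within 1000 bp of an Act87E start. The share of all coding genes with a divergent neighbour was not counted. Position alone does not say which start of a pair a summit belongs to, and this was not tested.

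The summits of the ranked lists were compared between the replicates by position. Of the 25 summits of replicate 1 at the 10 genes, 12 (48.0%) had a summit of replicate 2 within 200 bp, beside 50.8% of all 32846 summits of replicate 1 on the 5 main arms. Of the 38 summits of replicate 2 at these genes, 12 (31.6%) had a summit of replicate 1 within 200 bp, beside 18.6% of 93894. Summits of 1 gene share their locus and are not independent. None of the 3 summits of replicate 1 at Act42A and none of the 6 at betaTub56D had a match.

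Those genes lie where the ranked list of replicate 2 was empty. Act42A lay in a stretch of 47.9 kb without a summit of replicate 2, and betaTub56D in 1 of 49.2 kb, while the median spacing of summits in that list was 877 bp and its 99th percentile 11500 bp. In the same stretches replicate 1 had 15 and 34 summits, the pooled ranked list had 14 and 31, and the pooled thresholded list had 2 and 2. The smaller pooled ranked list had only 2 and 1 there, none of them at Act42A or betaTub56D. Such stretches of at least 20 kb numbered 303 on the 5 main arms, covered 10.4 Mb and held the starts of 853 coding genes (6.11%) and 69 summits of the pooled thresholded list. The other ranked lists had such stretches too: the sparser ranked list of replicate 1 had 660 (median spacing 2120 bp). The pooled ranked list had 363 (1180 bp) and the smaller pooled ranked list 608 (1210 bp). The cause was not tested. At Act42A and betaTub56D a missing summit in replicate 2 is therefore shared with all their neighbours, among them Src42A and Pngl, and RpL11 and par-1. The other 8 genes had summits of replicate 2 in or near them.

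**Figure D4:**
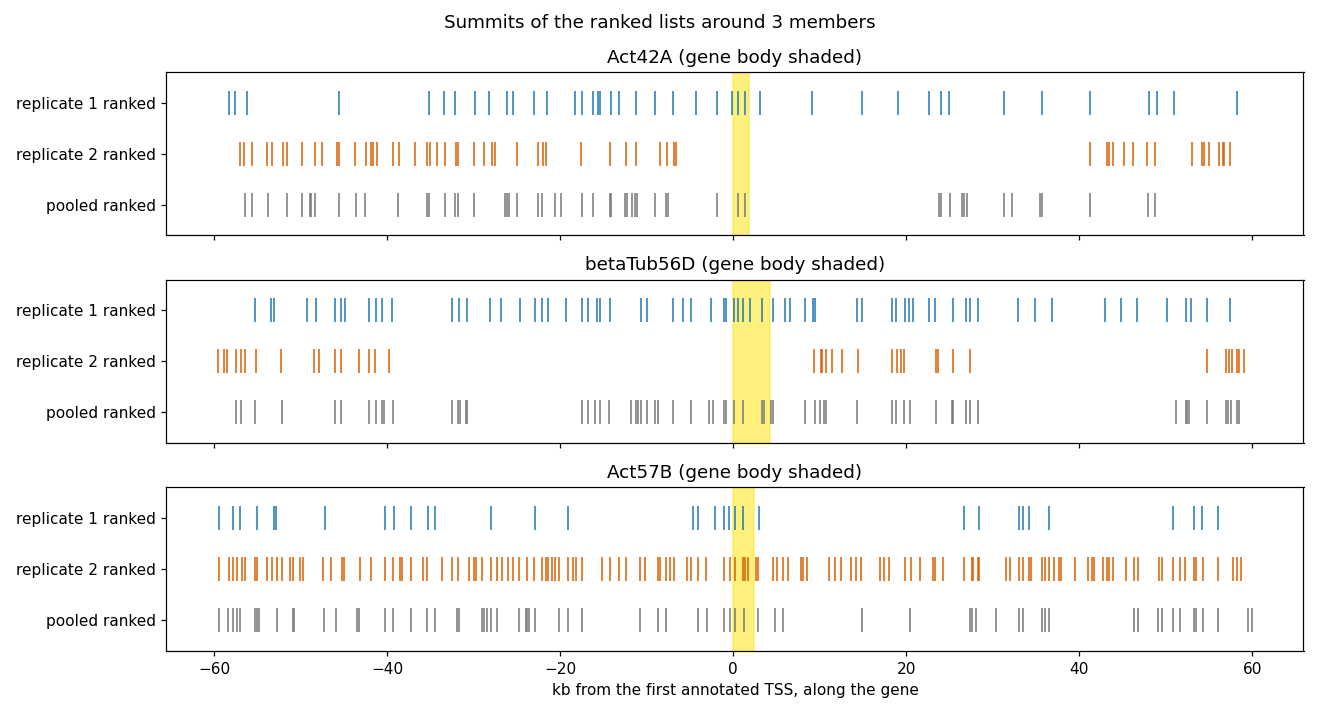
Ticks mark summits of the ranked lists of replicate 1 (blue), replicate 2 (orange) and the pooled reads (grey) by distance in kb from the first annotated TSS along the gene, for Act42A, betaTub56D and, as a gene with summits of all lists, Act57B; yellow marks the gene body. The orange row is empty for 47.9 kb around Act42A and 49.2 kb around betaTub56D, while the blue row continues across both.

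The members also differed in their core promoter letters, which the choice of genes did not use. The letters TATAAA, the core of the TATA box that TFIID binds through its TBP subunit, were searched on the forward strand in the 100 bases before the most upstream start. They were present in 6 of the 10 genes, beside 15.2% of coding genes: Act5C, Act57B, Act87E, Act88F, alphaTub84B and betaTub56D. They began 24 to 32 bp before the start in all 6. Only these exact letters were searched, so variants of them were not counted. No match was found in gammaTub23C, Act42A, Act79B or betaTub60D. Among the genes with a thresholded summit within 1000 bp of a start, Act5C and betaTub56D held these letters and gammaTub23C did not. The 60 bases before the starts of Act87E, Act88F, alphaTub84B and Act79B are shown to compare the TATAAA genes with 1 that lacks the exact letters. They cover chr3R:13425923-13425982, chr3R:15439909-15439968, chr3R:7086539-7086598 and chr3L:21985150-21985209 of dm6, plus strand. Capitals mark TATAAA in the first 3, GAGAG in Act88F and CAGCTG in Act79B.
Act87E: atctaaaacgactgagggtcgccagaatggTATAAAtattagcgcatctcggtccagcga
Act88F: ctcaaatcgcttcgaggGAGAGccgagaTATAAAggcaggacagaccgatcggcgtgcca
alphaTub84B: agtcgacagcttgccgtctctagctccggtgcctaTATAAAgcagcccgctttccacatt
Act79B: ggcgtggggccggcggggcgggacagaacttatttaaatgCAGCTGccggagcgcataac

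The other motifs were searched on both strands from 250 bases before to 50 after the start, and shares of coding genes use the most upstream start. GAGAG, the core letters bound by GAGA factor, was present in 6 of the 10 genes (29.8% of coding genes): Act5C, Act42A, Act87E, Act88F, alphaTub84B and betaTub56D. The CArG box was present only in Act5C (1.39%), and the E-box CAGCTG only in Act79B (17.7%). The DRE letters TATCGATA (9.36%) and CATCNCTA, letters of Ohler motif 7 (6.42%), were in none of the 10. The initiator core TCAGT, searched on the forward strand within 10 bases of the start (12.2%), was present at betaTub60D and at the second start of Act5C. Matches of GAGAG overlapped one another in places, and no match overlapped one of another motif. The sequences are from the RefSeq copy of the release 6 assembly.

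Of 17 other annotated actin-related and tubulin genes, 2 (11.8%) had a pooled thresholded summit within 500 bp, beside 13.2% of coding genes. Arp5, an actin-related protein of the INO80 chromatin remodeller, had 103.2 (51.9 in replicate 1 and 53.5 in replicate 2) at a summit shared with CG7208. Arp53D, a testis actin-related protein, had 68.7 (37.6 and 29.6) at a summit shared with Sod2. Within 1000 bp betaTub97EF, a beta-tubulin gene, followed with 78.5 at 631 bp upstream, which made 3 (17.6%). The tubulin genes alphaTub67C, gammaTub37C and betaTub85D, used in the germline or testis, had none. In the ranked list of replicate 1 each of these had a summit within 500 bp, the strongest 15.2 at betaTub85D. In that of replicate 2, betaTub85D alone of these did (7.0). Over all 17 genes the ranked lists gave 9 (52.9%) in replicate 1 and 10 (58.8%) in replicate 2. The shares of coding genes were 49.7% and 64.2%, so the counts over the 17 were close to them.

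Of 41 genes for actin nucleation, turnover and binding, 10 (24.4%) had a pooled thresholded summit within 500 bp and 11 (26.8%) within 1000 bp, and in the replicates 7 and 7 (17.1% each) had 1 within 500 bp, beside 7.23% and 10.6% of coding genes. The formin Fhos had 325.9, with 151.1 in replicate 1 and 173.3 in replicate 2. Vinc, the focal adhesion protein vinculin, had 178.7, Hem of the WAVE complex 141.2, the spectraplakin shot 114.5 and the nucleator capu 108.4. The cyclase-associated protein gene capt had 94.7, Arpc2 of the ARP2/3 complex 66.5 and the formin dia 66.3. Abi, of the WAVE complex, and twf, for the monomer-binding protein twinfilin, share 1 summit of 81.8, so 10 genes stand for 9 summits.

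Among sarcomere genes and muscle regulators the count within 500 bp was 3 of 25 in the pooled list and in each replicate, beside 13.2% of coding genes in the pooled list, 7.23% in replicate 1 and 10.6% in replicate 2. They were Msp300, a nuclear envelope and muscle spectrin-repeat protein (259.0), sls, the fly titin (164.2), and tin, the heart and visceral mesoderm transcription factor (136.1). Mhc, the sarcomere myosin heavy chain, had none, as was the case for the 4 muscle actin genes. The summits at Msp300 and sls were of 128.2 and 56.6 in replicate 1 and of 126.7 and 108.8 in replicate 2, all above the strongest summit at any muscle actin gene.

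Tubulin partners gave 5 of 21 genes (23.8%) for the gamma-tubulin ring complex, tubulin folding and modification, with 3 (14.3%) in replicate 1 and 5 (23.8%) in replicate 2. The shares of coding genes were again 13.2% in the pooled list, 7.23% in replicate 1 and 10.6% in replicate 2. Atat, a tubulin acetyltransferase gene, had 727.6 (284.3 and 445.1) and shares its summit with Shc. The prefoldin genes mgr and Pfdn6 had 245.2 and 75.5, and the ring complex genes Grip71 and Grip84 had 154.8 and 83.7. Of 31 microtubule-associated and motor genes, 5 (16.1%) had 1 within 500 bp in the pooled list, near the share of coding genes: chb, the CLASP homologue (172.4), the severing enzymes Kat60 (98.1) and spas (83.9), the dynein intermediate chain sw (81.6) and the kinesin pav (79.3). The dynein heavy chain gene Dhc64C had 256.9 at 708 bp downstream of a start. Each of the 5 genes of the ring complex and folding list shares its summit with another gene's start within 500 bp. In the other lists the summits at Hem, chb and Kat60 were shared too, while those at Fhos, Msp300 and sw were not. The share of all coding genes with a shared summit was not counted.

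**Figure D5:**
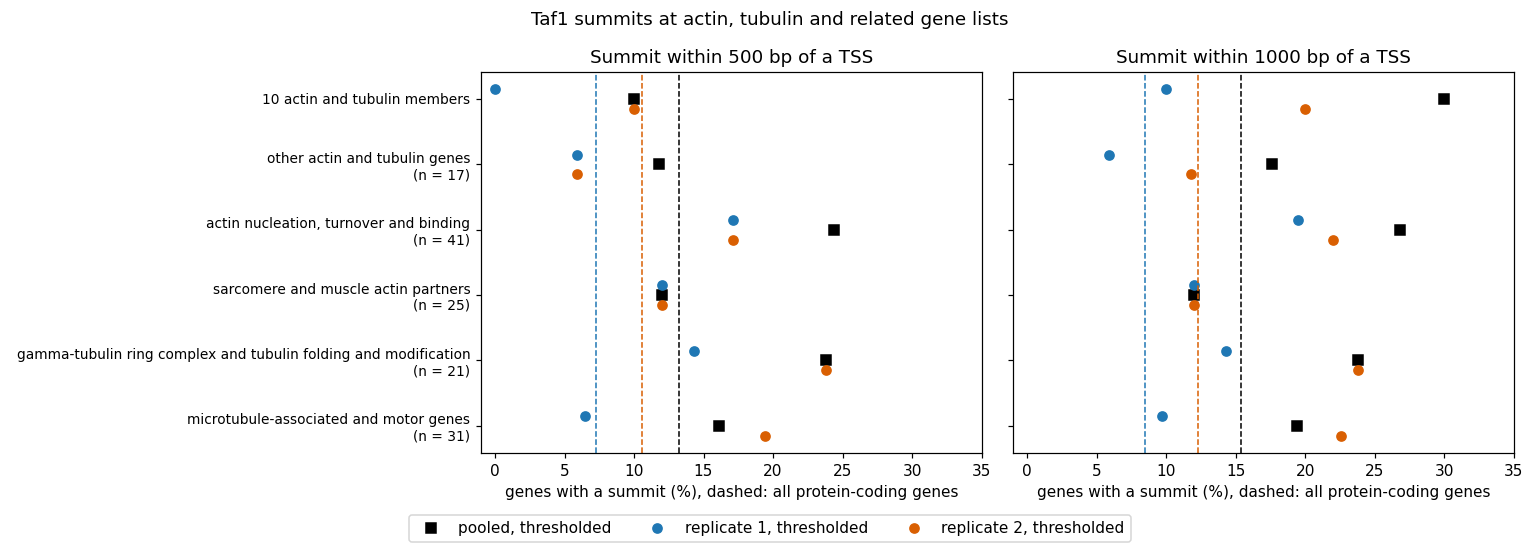
Shares of genes (%) with a summit within 500 or 1000 bp of a TSS are plotted for the 10 actin and tubulin genes and 5 related lists in the pooled thresholded list (black squares) and the thresholded lists of replicate 1 (blue) and replicate 2 (orange); dashed lines in the same colours are the shares of all protein-coding genes. Within 500 bp the pooled share of the 10 genes (1 of 10) lies just below the line at 13.2%. Those of the actin-binding (24.4%) and ring complex (23.8%) lists lie above it. Within 1000 bp the pooled share of the 10 genes (3 of 10) lies above the line at 15.4%.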

How the data were processed

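Taf1-eGFP ChIP-seq was done on whole embryos in 2 biological replicates (1 group), with coordinates on dm6, per the labels. The authors deposited 8 peak lists: a ranked and a thresholded list for each replicate and, from the pooled reads, 2 ranked lists, a conservative and a larger thresholded list, per the deposited file lists, which also name a control in their making. Which aligner and peak caller were used is not given in the sources used here. The signal is the value of each peak as deposited, scale not stated. The global IDR was computed back from its −log10 value as the authors deposited it. Per-sample values in the pooled ranked lists (2 columns each) were not used.

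Summits were assigned to TSSs and gene bodies of Ensembl release 115 by position, and letters came from the RefSeq release 6 assembly. No test was run: counts stand beside the share of 13968 protein-coding genes. The assignment was tested on simulated data. The 10 genes, the related lists and the motifs were chosen with earlier results of these data known. Genes named were the 10, their neighbours, and members of related lists with a pooled thresholded summit within 500 bp, up to 10 a list by signal; betaTub97EF, Dhc64C, Mhc and the 3 germline and testis tubulin genes were added after their values were seen. Of the related lists, 2, 2, 1, 7 and 3 symbols were not found in the annotation and left out. Alternatives were the conservative list, each replicate alone, other windows, peak overlap, the most upstream TSS, RefSeq TSSs and an IDR of at most 0.05. Scripts ran under Python 3.11.15, numpy 2.4.6, pandas 2.3.3 and matplotlib 3.10.9.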

Additional observations from a re-analysis of the deposited data

How the results depend on the processing

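Of 29 alternative values for the 6 main counts and values, 22 were counted as unmoved, which allows a count to differ by up to 1.5 times, and 7 moved. Among the 22, the count within 1000 bp was 2 in the conservative list, and the ranked lists gave 6 genes (250 bp) and 9 (1000 bp) in replicate 1 and 5 and 7 in replicate 2. Using 1 replicate's thresholded list in place of the pooled one, the count within 500 bp was 0 to 1 (pooled 1), the count within 1000 bp was 1 to 2 (pooled 3), the count in the body was 0 in both, and the strongest signal was 60.7 to 70.5 (pooled 130.0), on the scale of each list. Without replicate 2 the count within 500 bp was 0, since gammaTub23C was thresholded in replicate 2 only. Counting any overlap of a peak with the body in place of its summit gave 2 genes in place of 0, gammaTub23C and Act87E. Their peaks reach into the gene from outside, at gammaTub23C the weaker peak, of signal 9.0. With an IDR of at most 0.05, the ranked lists gave 1 gene within 500 bp in each replicate in place of 8 in replicate 1 and 5 in replicate 2. The most upstream TSS alone gave no value for the body, which has no TSS in its rule, and RefSeq placed the starts of all 10 genes at the same bases as Ensembl. No paired analysis was possible because there was 1 group. Depth is unknown, so what a summit's absence from a list reflects could not be tested.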
